A study of Homo sapiens with 6 samples.

Results

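IL11 is a secreted cytokine of the interleukin 6 (IL6) family, and the genes described here are those of this family: the ligand genes IL11, IL6, LIF and CLCF1, the receptor genes IL6ST, IL6R, IL11RA, OSMR and LIFR, and the feedback gene SOCS3. They were measured in MDA-MB-231 cells, an established human triple-negative breast cancer line, on 6 Affymetrix Human Gene 2.0 ST arrays. A total of 3 arrays held RNA of control cells and 3 held RNA of cells given 200 μM S-adenosylmethionine (SAM), the methyl donor of the cell, both grown in DMEM with fetal bovine serum. Controls are untreated cells by the sample labels and vehicle-treated cells by the study's methods, and SAM was added to the medium every other day. The RNA came from 3 independent experiments with 1 cell line, so the p-values measure the spread between cultures of that line.

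The members were found by gene symbol in the platform annotation, and a gene with several rows was represented by the row with the highest mean over the 6 arrays. Of the 10 members, 6 had a row there (IL11, LIF, IL6R, OSMR, LIFR and SOCS3), in 7 rows of the 53617 transcript clusters of the array, and SOCS3 had 2 of the rows. IL6, CLCF1, IL6ST and IL11RA were not analysed here, because none of the named rows carries their symbol. The family was selected on the signal difference of IL11 between the SAM and control arrays, which was known beforehand. The difference of IL11 between the groups is therefore a description, with no test.

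The cytokines of this family signal through the shared receptor chain gp130, which IL6ST encodes, joined by chains that recognise each ligand. IL11 and IL6 first bind their own alpha receptors (IL11RA and IL6R), whereas LIF uses LIFR next to gp130 and oncostatin M uses OSMR or LIFR. The receptors activate Janus kinases and the transcription factor STAT3, and STAT3 induces SOCS3, whose product binds gp130 and the kinases and shuts the signal down. In breast cancer IL11 is best known as a factor that stimulates osteoclasts in bone metastasis, and its transcription is known to respond to TGF-β and to the AP-1 factors.

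The start region of IL11 is shown because IL11 is the member whose level differed most between the groups and because a site for AP-1 bears on the regulators described further on. It covers 250 bases before and 50 bases after the transcription start (RefSeq, build GRCh38.p14, chr19:55370414-55370713, minus strand). Capitals mark the AP-1 motif TGAGTCA, which begins 96 bases before the start, and the TATA box TATATAA, which begins 31 bases before it.

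IL11 promoter: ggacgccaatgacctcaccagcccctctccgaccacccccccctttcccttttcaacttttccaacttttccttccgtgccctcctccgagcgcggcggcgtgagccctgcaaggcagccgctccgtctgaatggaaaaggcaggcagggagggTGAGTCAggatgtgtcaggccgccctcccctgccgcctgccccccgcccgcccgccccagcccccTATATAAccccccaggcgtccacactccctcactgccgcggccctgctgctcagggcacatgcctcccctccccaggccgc

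Both motifs were searched on both strands. The AP-1 letters occur in 4.95% and the TATA letters in 2.57% of 35116 RefSeq start regions of the same length. The RefSeq table held 12 start regions for 8 of the 10 members, with none for LIF or CLCF1. AP-1 letters were also present in the region of IL6R, after its start, and in no other member's region. The STAT motif TTCNNNGAA, present in 7.66% of all regions, was found in 2 of the 3 regions of LIFR and in neither region of SOCS3. The IL11 region held 19 CpG dinucleotides, against a median of 14 over all regions, the OSMR region 23 and that of IL6R 27. Methylation was not measured in these samples, and a motif match is a matter of letters only.

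All values below are log2 signal intensities, so a difference of 1 is a doubling. A transcript cluster was said to pass where it met both thresholds of the study's methods, an unadjusted P under 0.01 in limma and a fold change over 1.5. The medians of the 6 arrays lay between 4.75 and 4.85. Control replicate 1 correlated least with the rest (mean r across transcript clusters 0.964, the others 0.974 to 0.98). The 4 measured markers of mesenchymal-type breast cancer lines had mean signals of 9.32 (VIM), 7.90 (CD44), 10.5 (AXL) and 11.5 (MSN). Every SAM array was above every control array for CD44 and below every control array for VIM and MSN. The groups overlapped for AXL, and 0 of these 4 genes passed. Over all transcript clusters, 15.1% had groups that did not overlap, and 1.09% passed. The mean signals of the 5 measured luminal epithelial markers were 9.81 (KRT18), 6.54 (EPCAM), 6.29 (KRT8), 5.09 (the estrogen receptor gene ESR1) and 4.12 (the progesterone receptor gene PGR). Keratin 18 was thus bright in these cells as well. Of the 5 leukocyte markers 2 were measured, the monocyte gene CD14 and the lysosomal gene CD68, which many cultured lines also express. Their summed linear signal ranged from 1287 to 1401 under control conditions and from 1668 to 1983 under SAM, and its part in the results was not tested.

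IL11 was higher in SAM-treated than in control MDA-MB-231 cells. Its log2 signal was 8.04, 9.10 and 8.54 in control replicates 1 to 3 and 10.01, 9.25 and 10.02 in SAM replicates 1 to 3. The groups did not overlap, but Control replicate 2 and SAM replicate 2 lay close to each other, and each group spread widely. The mean went from 8.56 ± 0.528 to 9.76 ± 0.441 (SD, n = 3 in each group), a difference of 1.20 (SE 0.31), or 2.30-fold. Leaving out 1 array at a time gave differences between 0.94, without Control replicate 1, and 1.47, without Control replicate 2.

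**Figure D1:**
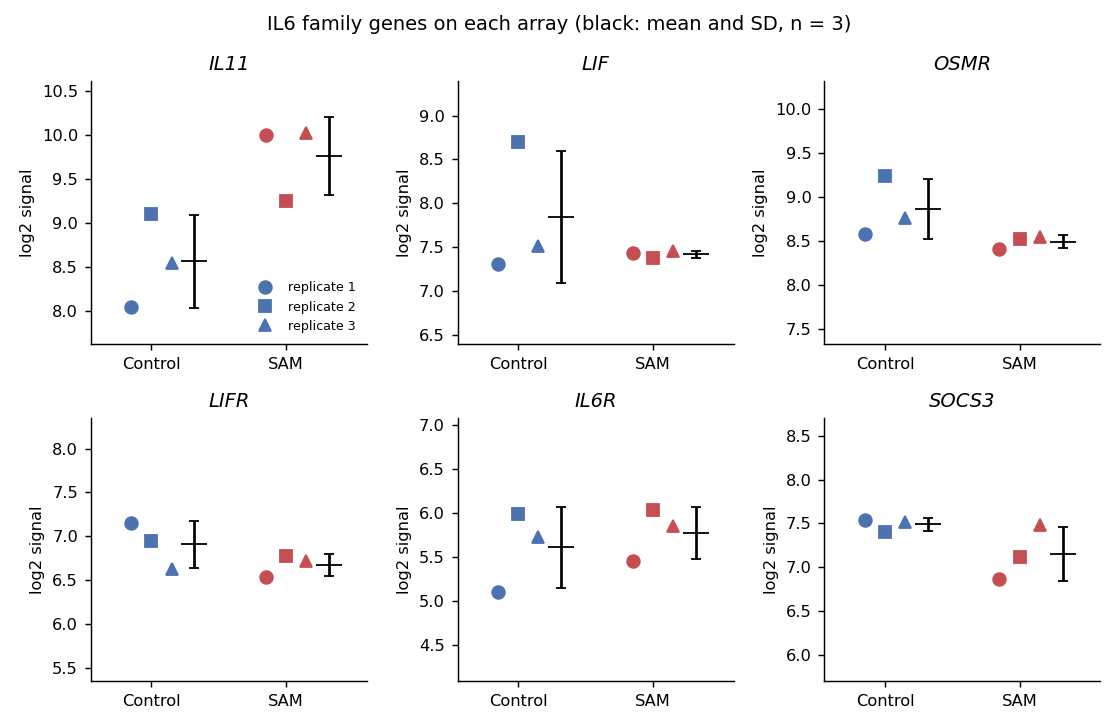
Log2 signal of the 6 measured members on each array (y axis; all panels span 3 log2 units), with control arrays in blue, SAM arrays in red, the marker shape giving the replicate, and the mean with SD (n = 3) in black. IL11 lay between 8.04 and 9.10 in the control arrays and between 9.25 and 10.02 in the SAM arrays, whereas the LIF panel shows 1 control array at 8.70 and the other 5 arrays between 7.30 and 7.52.

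LIF, the other measured member among the ligands, was nearly level in 5 of the 6 arrays. It encodes leukemia inhibitory factor, which sustains embryonic stem cells in the mouse. Its signal was 7.30, 8.70 and 7.52 in control replicates 1 to 3 and 7.44, 7.38 and 7.45 in SAM replicates 1 to 3. The groups overlapped, and Control replicate 2 alone was high. The difference of -0.42 (SE 0.34, 95% interval -1.20 to 0.37) did not pass the thresholds (limma adjusted p = 0.747 over all transcript clusters). Without Control replicate 2 it was 0.01 (SE 0.15).

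OSMR, the signaling chain for oncostatin M and interleukin 31, was the only member among the receptors whose groups did not overlap. The signal was 8.57, 9.24 and 8.77 in the control arrays and 8.41, 8.52 and 8.55 in the SAM arrays. Every SAM array was below every control array, though the lowest control and the highest SAM array nearly met. The difference of -0.37 (SE 0.19, 95% interval -0.80 to 0.06) did not pass (limma adjusted p = 0.656). Without Control replicate 2 it shrank to -0.18 (SE 0.15).

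LIFR encodes the receptor chain that binds LIF. Its signal was 7.15, 6.95 and 6.62 in the control arrays and 6.53, 6.78 and 6.72 in the SAM arrays. The groups overlapped through Control replicate 3. The difference was -0.23 (SE 0.17, 95% interval -0.62 to 0.16), which did not pass (limma adjusted p = 0.726), and with 1 array left out it ran from -0.11, without Control replicate 1, to -0.37, without Control replicate 3 (-0.21 without Control replicate 2).

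IL6R encodes the alpha receptor of IL6. Its signal was 5.10, 5.995 and 5.73 in the control arrays and 5.45, 6.03 and 5.85 in the SAM arrays. The replicate 2 arrays were the highest and the replicate 1 arrays the lowest of both groups, and the groups overlapped almost fully. The difference of 0.17 (SE 0.26, 95% interval -0.43 to 0.76) did not pass (limma adjusted p = 0.872). It was 0.36 without Control replicate 2 and -0.086 without Control replicate 1, so its sign is not settled by these arrays.

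SOCS3, the feedback inhibitor that STAT3 induces, had a lower mean in SAM-treated cells, with overlapping groups. In its brighter row the signal was 7.54, 7.40 and 7.52 in the control arrays and 6.87, 7.11 and 7.48 in the SAM arrays. The control arrays were close together, and SAM replicate 3 fell among them. The difference of -0.33 (SE 0.17, 95% interval -0.74 to 0.07) did not pass (limma adjusted p = 0.665), and with 1 array left out it ran from -0.19, without SAM replicate 1, to -0.50, without SAM replicate 3 (-0.38 without Control replicate 2). In its dimmer row, with a mean signal of 4.71, the difference was -0.09 (SE 0.22).

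**Figure D2:**
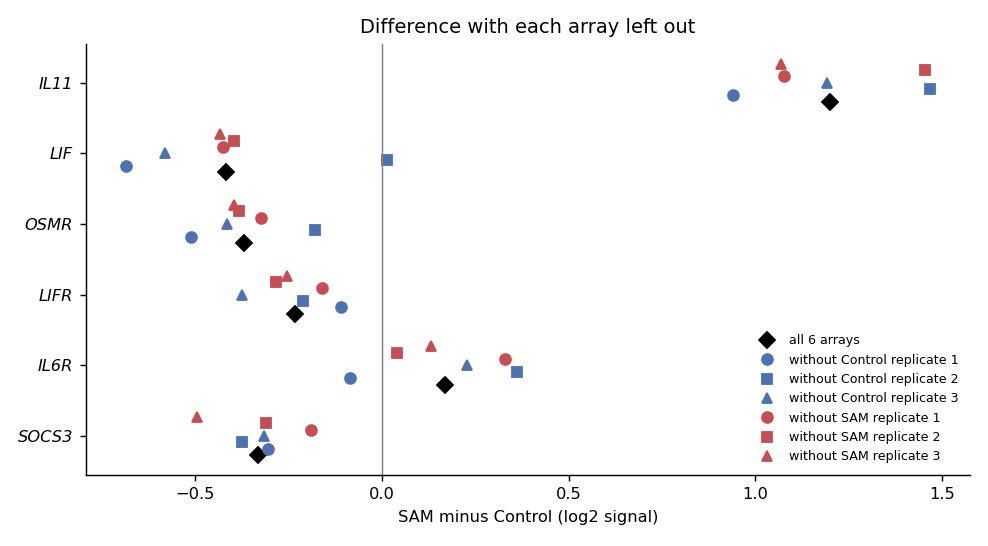
Difference of group means, SAM minus Control, in log2 signal (x axis) for each measured member (y axis), with all 6 arrays (black diamonds) and with 1 array left out (blue where a control array was left out, red where a SAM array was, shape by replicate). IL11 stays between 0.94 and 1.47, LIF moves from -0.42 to 0.01 without Control replicate 2, and the sign of IL6R turns without Control replicate 1.

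Of the 6 measured members, 1 (IL11) passed both thresholds and 5 did not, where 1.09% of all transcript clusters passed, 0.464% of them higher and 0.621% lower in SAM-treated cells. After adjustment limma left 0 transcript clusters below a p of 0.05, and 4285 were below it without adjustment. The groups did not overlap for 2 members, IL11 and OSMR, as for 15.1% of all transcript clusters. Since IL11 was chosen in this contrast, nothing is read from these counts, and IL11 no longer passed without Control replicate 1, Control replicate 3, SAM replicate 1 or SAM replicate 3, with the replicate number as a block, or with a test of its own 6 values alone without limma's shared spread. In an exact permutation test of the arrays (two-sided; the smallest p it can give is 0.1), p was 0.6 for LIF, 0.1 for OSMR, 0.3 for LIFR, 0.6 for IL6R and 0.2 for SOCS3. The median difference over the 6 members was -0.28, against -0.0031 over all transcript clusters, and it was -0.083 without Control replicate 2.

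None (0) of the other measured genes of the pathway passed both thresholds. Lists of 151 gene symbols around the family were examined, of which 103 had a named row. An unadjusted limma P under 0.05 was reached by 7 of the 103 (6.8%), where 7.99% of all transcript clusters reached it. With no overlap between the groups, 5 of the 103 were higher (4.85%) and 12 lower (11.7%), where 7.12% and 7.95% of all transcript clusters were.

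Of 7 further ligands and cofactors, 5 were measured and 0 passed, with a median difference of 0.10. The largest difference was that of IL27, which encodes a subunit of interleukin 27, at 0.21 (SE 0.15). EBI3, the partner of that subunit, had a difference of 0.10 (SE 0.19), and IL31, which encodes the other ligand of OSMR, one of 0.14 (SE 0.15). IL31 was dim, with a mean signal of 3.57, below the array medians. Of 8 further receptors, 5 were measured and 0 passed. IL31RA, the partner of OSMR in the interleukin 31 receptor, gave 7.24, 7.37 and 6.93 in the control arrays and 6.68, 6.90 and 6.92 in the SAM arrays. Its groups did not overlap, as with OSMR, and its difference was -0.35 (SE 0.16, limma adjusted p = 0.639). CRLF2, a receptor chain for the cytokine TSLP, had a difference of 0.50 (SE 0.28) and the leptin receptor gene LEPR one of -0.20 (SE 0.13). The groups of LEPR did not overlap either, with the SAM arrays lower, as for 7.95% of all transcript clusters.

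Among 15 measured genes of the kinases, STAT factors and adaptors that carry the signal, 12 had a negative difference and 0 passed (median -0.13). JAK2, a Janus kinase that gp130 activates, came closest. Its signal was 5.29, 4.97 and 5.12 in the control arrays and 4.74, 4.43 and 4.49 in the SAM arrays, so that every SAM array was below every control array. The difference of -0.57 (SE 0.15, limma adjusted p = 0.566) corresponded to 1.49-fold. Its unadjusted P was within the threshold, and it missed the fold change minimum alone. JAK2 passed both thresholds without Control replicate 2 (-0.65), without SAM replicate 1 (-0.67), after centring on array medians (-0.61) and after renewed quantile normalization (-0.61). Its mean signal of 4.84 was close to the array medians, so JAK2 was a dim gene.

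JAK1, the kinase on which gp130 signaling mainly relies, gave 9.26, 9.49 and 9.40 in the control arrays and 8.94, 8.998 and 9.24 in the SAM arrays. These groups did not overlap either, and the difference was -0.32 (SE 0.14, limma adjusted p = 0.627). GAB2, a docking protein of growth factor and cytokine receptors, had a difference of -0.49 (SE 0.16) and passed without Control replicate 3 (-0.66). STAT3 itself, named here after its values were seen, had a difference of -0.13 (SE 0.13).

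Of 17 other inhibitors of the pathway, 8 were measured and 0 passed, with 5 differences negative and a median of -0.03. The largest was that of SOCS7 at -0.22 (SE 0.12), while SOCS6 had -0.10 (SE 0.16) and SOCS4 0.08 (SE 0.14). The 95% intervals of these 3 genes held 0, as did that of SOCS3.

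Of 24 STAT3 target genes, 18 were measured, and 0 passed. A total of 13 had a negative difference, with a median of -0.29, and BCL3, a nuclear regulator of NF-κB, had the smallest P. BCL3 gave 7.55, 7.37 and 7.17 in the control arrays and 6.73, 7.01 and 6.999 in the SAM arrays. The groups did not overlap, and the difference was -0.45 (SE 0.15, limma adjusted p = 0.58). The kinase gene PIM1 had a difference of -0.35 (SE 0.20) and the survival gene MCL1 one of -0.35 (SE 0.20). Without Control replicate 2 the same 13 to 5 split of signs was counted, and the median of the list was -0.069.

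None (0) of the measured acute-phase genes, which IL6 induces in liver, passed. Of 18 such genes 13 were measured, 11 with a positive difference (median 0.11), but 7 positive and 6 negative differences (median 0.027) were left without SAM replicate 2. SAA1, the gene of serum amyloid A, gave 10.17, 10.25 and 10.16 in the control arrays and 10.55, 10.67 and 11.27 in the SAM arrays. Every SAM array was above the tight control group, with SAM replicate 3 the highest, and the difference was 0.64 (SE 0.20, limma adjusted p = 0.575), or 1.55-fold. SAA1 passed both thresholds without SAM replicate 1 (0.77), with array weights (0.71), with a trended and robust variance (0.64), after renewed quantile normalization (0.64) and when a gene's rows were averaged (0.64). SAA1 has a near-identical copy, SAA2, so that its signal may be shared. The dim genes ORM2 and LBP had differences of 0.33 (SE 0.15) and 0.22 (SE 0.12), with no overlap between the groups.

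**Figure D3:**
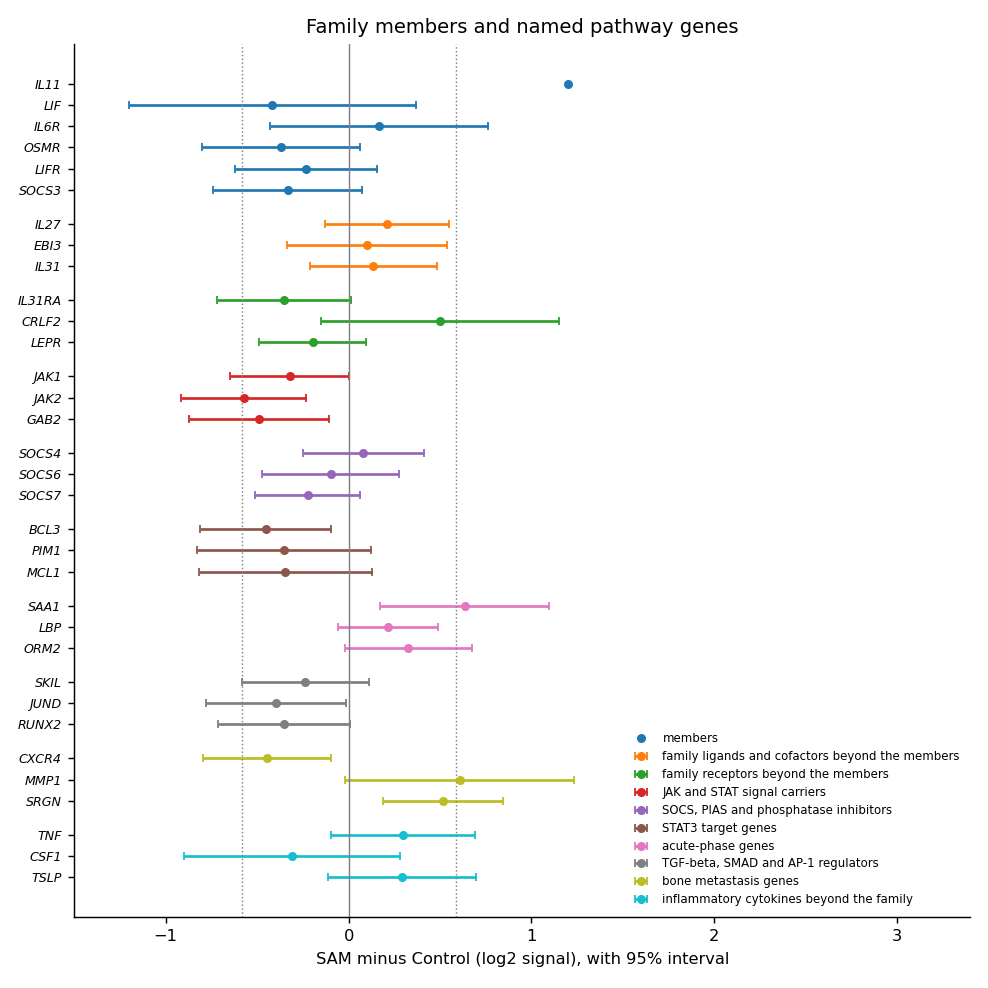
Difference SAM minus Control in log2 signal (x axis) with its 95% interval from limma (n = 3 arrays in each group; none drawn for IL11, which was chosen by its difference) for the 6 measured members and the named genes of each list (y axis, colour by list); dotted lines mark a 1.5-fold change. IL11 lies at 1.20, JAK2 at -0.57 just inside the dotted line, and SAA1 at 0.64 outside it.

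On the list of TGF-β, SMAD and AP-1 regulators, 0 of the measured genes passed both thresholds. Whether these genes regulate IL11 in this line was not tested. Of 22 genes of TGF-β signaling, SMADs, AP-1 and related factors, 15 were measured. The TGF-β ligand and receptor genes on this list had no named row and are not among them. All 15 measured genes had a negative difference (median -0.15), where 50.6% of all transcript clusters had one. This count includes FOSL1 at -3e-04 and JUN at -0.0109, which were nearly level. JUND, an AP-1 subunit, gave 8.31, 8.78 and 8.32 in the control arrays and 8.18, 7.99 and 8.06 in the SAM arrays. Its groups did not overlap, and its difference was -0.40 (SE 0.16, limma adjusted p = 0.622). RUNX2, a bone transcription factor, had a difference of -0.35 (SE 0.16) and SKIL, a repressor of SMADs, one of -0.24 (SE 0.15). Without Control replicate 2 the list held 10 negative and 5 positive differences (median -0.062). FOSL1, the AP-1 subunit FRA-1 and named here after its values were seen, gave 9.81, 10.11 and 9.74 in the control arrays and 9.94, 10.03 and 9.69 in the SAM arrays, which overlapped fully.

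The genes known with IL11 from bone metastasis of this line showed no common direction. Of 13 listed symbols, among which CTGF and CCN2 name the same gene, 9 were measured. Of these, 6 had a negative difference (4 without Control replicate 2), and 0 passed. SRGN, the gene of the proteoglycan serglycin, gave 9.997, 10.33 and 9.98 in the control arrays and 10.64, 10.57 and 10.65 in the SAM arrays. The groups did not overlap, and the difference of 0.52 (SE 0.14, limma adjusted p = 0.572) was 1.43-fold, under the minimum; without Control replicate 2 it was 0.63 and passed. MMP1, a collagenase, had a difference of 0.61 (SE 0.27) with overlapping groups, and passed without Control replicate 1 (0.89) and with array weights (0.89). The chemokine receptor gene CXCR4 gave 6.20, 5.98 and 5.73 in the control arrays and 5.52, 5.54 and 5.51 in the SAM arrays. Its difference was -0.44 (SE 0.15, limma adjusted p = 0.58), which did not pass.

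Among 20 cytokines outside the family, 15 were measured and 0 passed, with 8 negative and 7 positive differences. The smallest P values were those of TNF at 0.30 (SE 0.17), the macrophage factor gene CSF1 at -0.31 (SE 0.25) and TSLP at 0.29 (SE 0.17). TSLP was dim, with a mean signal of 3.50, below the array medians. IL24, a cytokine of the interleukin 10 family, had a difference of 0.07 with all arrays and of 0.74 (SE 0.20) without Control replicate 2, where it passed.

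Control replicate 2 stood apart in several of these genes. It was the highest of the 6 arrays in 45 of the 103 measured list genes, against 12.8% of all transcript clusters (16.7% of the brighter ones). It exceeded every other array by over 0.5 in 9 list genes and in LIF, against 0.602% of all transcript clusters. Those were EGR1, PTGS2, IL24, JUNB, ATF3, ICAM1, MYC, MCL1 and BCL6, named here after their values were seen. Over the whole array Control replicate 1 was the highest by that gap more often than Control replicate 2. It was so in 2178 transcript clusters against 323, and in 366 against 214 of the brighter ones. EGR1, JUNB, ATF3 and MYC are early response genes, which cells induce within a short time of many stimuli. Other early response genes on the lists were mixed, since FOS and FOSB were highest in another array and JUN was highest in Control replicate 2. FOS was at 7.34 in Control replicate 2 and at 7.61 in Control replicate 3. FOSB was at 6.95 in Control replicate 2, 6.92 in Control replicate 3 and 6.95 in SAM replicate 3. JUN was at 9.97 in Control replicate 2 against 9.82 in SAM replicate 3. IER3 and FOSL1, named here after their values were seen, were also highest in Control replicate 2. They were at 11.65 and 10.11 there, against 11.42 and 10.03 in SAM replicate 2. EGR1 was at 11.56 in Control replicate 2 and at 9.32 to 9.83 in the other arrays. PTGS2, the gene of the inducible cyclooxygenase, was at 9.47 there and at 7.08 to 8.06 elsewhere. IL11 was also higher in Control replicate 2 than in the other 2 control arrays, by 0.80 over their mean, as was OSMR, by 0.57, and IL6R, by 0.58, whereas SOCS3 was 0.13 lower. Whether the early response genes have a part in the level of LIF or IL11 in that culture was not tested.

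**Figure D4:**
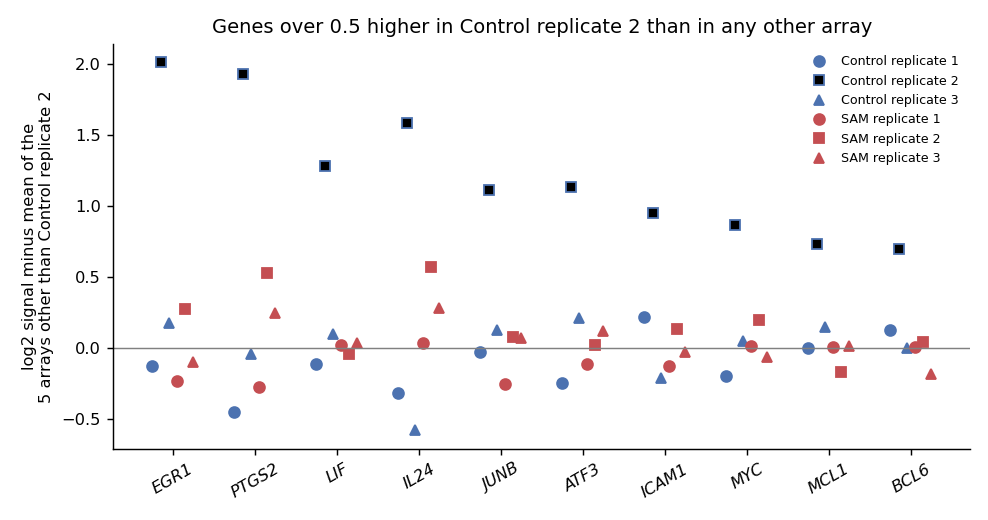
Log2 signal minus the mean of the 5 arrays other than Control replicate 2 (y axis) for the 10 genes (x axis) that were chosen because Control replicate 2 exceeded every other array by over 0.5; control arrays are blue, SAM arrays red, and Control replicate 2 is filled black. The gap to the next array ran from 0.57 for BCL6 to 1.74 for EGR1, and was 1.19 for LIF.

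The pattern of IL11 over the 6 arrays was compared with 10682 other named genes whose mean signal was above the median of the array. The Pearson r was highest for GSTT4 (0.99), a gene of the glutathione S-transferase family, USP39 (0.99), a splicing factor gene, MRPS21 (0.99), DLX5 (0.99) and LINS1 (0.99). It was lowest for ZNF704 (-0.99), the lipase gene PNPLA3 (-0.99), the repressor gene CIC (-0.99), the neuroligin gene NLGN2 (-0.99) and MIR3143 (-0.99). The 90% of genes in the middle lay between -0.84 and 0.80, so that high values were common with 6 arrays that fall into 2 groups. Of these 10 genes, GSTT4 had the largest difference between the groups, 0.86 (SE 0.26), and that of LINS1 was 0.11 (SE 0.12). Among the members, r with IL11 was 0.01 for LIF, 0.41 for IL6R, -0.28 for OSMR, -0.67 for LIFR and -0.59 for SOCS3. These values are descriptions over 6 arrays of 2 groups.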

How the data were processed

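RNA of 3 control and 3 SAM-treated cultures of MDA-MB-231 cells was hybridised by the authors to Affymetrix Human Gene 2.0 ST arrays. The deposited values are log2 signals that the authors computed with RMA in oligo (background-corrected, quantile-normalized and summarized per transcript cluster); the version and the annotation build are not given in the sources used here. No filter was applied. The platform annotation gave 1 symbol for 16098 of 53617 transcript clusters and none for 37519.

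SAM was compared with Control by lmFit and eBayes of limma 3.58.1 (R 4.3.3) over all transcript clusters, without covariate or block, with the thresholds of the study's methods and Benjamini-Hochberg adjustment. The 95% intervals use the moderated SE. The procedure was tested on simulated data. Precision is limited by the number of arrays. The exact two-sided permutation test of 3 arrays against 3 cannot go below 0.1.

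The members and the 9 gene lists were chosen with earlier results of these data known. The text names every member, the genes past both thresholds or the 3 with the smallest P of each list, and the 5 genes most and least correlated with IL11. Alternatives were a filter on dim rows, renewed quantile normalization, centring, a trended and robust variance, array weights, a t-test, a replicate block, other fold change minimums, averaged rows and the omission of each array.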

Additional observations from a re-analysis of the deposited data

How the results depend on the processing

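The difference of IL11 kept its sign under all alternatives run and lay between 0.94 and 1.47 with 1 array left out. The sign could not turn when an array was left out, because the groups did not overlap. The t-test, the replicate block, the trended variance and the fold change minimums leave the difference itself unchanged. The family was selected on this difference, so nothing is read from its constant sign. IL11, the 1 member past both thresholds, did not pass with the t-test or with the replicate block (0 members called for each), and 0 or 1 members passed with 1 array left out. LIF had a difference of 0.0121 without Control replicate 2 and of -0.69 without Control replicate 1, the extremes over the omitted arrays. That of IL6R was -0.0013 with array weights and ran from -0.086 to 0.36 over the omitted arrays. The count of pathway list genes, 0 with all arrays, was 2 after renewed quantile normalization, 1 after centring, 1 with the trended and robust variance, 2 with array weights, 2 with no fold change minimum, 1 with averaged rows, and 0 to 3 with 1 array left out. Without Control replicate 1 the gene was MMP1; without Control replicate 2 the 3 were JAK2, SRGN and IL24; without Control replicate 3 it was GAB2; and without SAM replicate 1 the 2 were JAK2 and SAA1. Of all transcript clusters 582 passed; this was 359 with the dim rows left out, 188 with the t-test, 921 with no fold change minimum, 143 at a fold change over 2 and 463 to 934 with 1 array left out (934 without Control replicate 2). Averaged rows give no count of transcript clusters.

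The replicate numbers are the same in both groups, and the RNA came from 3 experiments, but no label ties the numbers to them. For deviations from the group means, r was -0.0027, -0.075 and 0.109 for same-numbered arrays and ranged from -0.14 to 0.11 for the other pairs. With the replicate block 659 transcript clusters passed, among them 0 members and 0 pathway list genes. The causes of these changes were not tested.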
